A study of Homo sapiens with 8 samples.

Results

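Keratins were described here over the 4 groups of arrays of a breast cancer cell study. They were taken as every row of the expression table whose gene symbol is KRT followed by a number and at most 1 letter, which leaves out the keratin-associated proteins. The rule found 60 features of 55 genes among the 29141 features and 20219 gene symbols tested, where a feature is the group of probes that the array summarizes to 1 value. The rule used names only and no measured value.

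The cells were MIV-Luc, which is MCF10CA1a, the metastatic line of the MCF10A breast progression series, carrying a luciferase gene. They were stably transduced with lentivirus for a scrambled hairpin (pLKO-shSCR) or for 1 hairpin against IL13Rα2, a receptor of interleukin-13, and each construct was either mock-treated or given IL-13 at 20 ng/ml over 16 h. This gave 4 groups with 2 biological replicates each and 8 arrays in all, namely MIV-Luc-shSCR without IL-13 (− IL-13) and with it (+ IL-13), and likewise MIV-Luc-shIL13Rα2#2. The 2 arrays of a group are called A and B in the order of their columns, and the groups are called, in that order, mock shSCR, IL-13 shSCR, mock knockdown and IL-13 knockdown. Luciferase and a lentiviral insert were common to all groups, and a single hairpin sequence stood for the knockdown, so its effect and that of an insertion or off-target effect cannot be told apart.

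Keratins are the intermediate filaments of epithelial cells and assemble only as pairs of an acidic type I and a neutral to basic type II protein. In the breast, KRT5, KRT14 and KRT17 mark basal and myoepithelial cells, while KRT7, KRT8, KRT18 and KRT19 mark the luminal layer. KRT15, a keratin of basal and progenitor cells, is counted in the basal class here and is not taken as a myoepithelial marker. KRT6 and KRT16 appear in wounded or rapidly dividing epithelium, the suprabasal keratins such as KRT1 and KRT10 accompany stratified differentiation, and the remaining ones build the inner root sheath and the hair shaft. IL-13 signals through STAT6, and IL13Rα2 binds the cytokine with high affinity and restrains that signal.

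All 55 symbols matched a current RefSeq symbol, 27 of genes on chromosome 12 and 28 on chromosome 17, the homes of the type II and type I clusters. By class, written from general knowledge, there were 6 basal features of 4 genes, 4 hyperproliferative features, 6 simple or luminal features of 5 genes, 15 suprabasal, 9 root sheath, and 19 hair features of 17 genes, with KRT222 in no class. KRT39 and KRT40 each had 2 features with identical values. The promoters of 34 of the 55 genes were in the RefSeq table used, as 38 windows. To show what these cluster genes look like upstream, the 250 bases before the start are printed for KRT5, the basal type II keratin, for KRT10, a suprabasal type I keratin, and for KRT33A, a hair type I keratin. They come from the RefSeq table for GRCh38.p14, read 5′ to 3′ on the minus strand at chr12:52520395-52520644, chr17:40822615-40822864 and chr17:41350829-41351078, with motif matches in capitals. KRT33A was picked after its values were seen.
KRT5: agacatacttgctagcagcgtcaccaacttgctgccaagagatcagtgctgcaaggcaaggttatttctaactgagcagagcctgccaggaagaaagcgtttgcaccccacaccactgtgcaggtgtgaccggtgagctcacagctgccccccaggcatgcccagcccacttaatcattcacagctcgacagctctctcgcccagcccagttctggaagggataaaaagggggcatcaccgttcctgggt
KRT10: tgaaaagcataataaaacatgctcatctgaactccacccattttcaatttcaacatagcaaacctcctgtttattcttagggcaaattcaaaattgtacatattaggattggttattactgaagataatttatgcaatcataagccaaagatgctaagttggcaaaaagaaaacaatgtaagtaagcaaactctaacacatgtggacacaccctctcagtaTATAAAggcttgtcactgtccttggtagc
KRT33A: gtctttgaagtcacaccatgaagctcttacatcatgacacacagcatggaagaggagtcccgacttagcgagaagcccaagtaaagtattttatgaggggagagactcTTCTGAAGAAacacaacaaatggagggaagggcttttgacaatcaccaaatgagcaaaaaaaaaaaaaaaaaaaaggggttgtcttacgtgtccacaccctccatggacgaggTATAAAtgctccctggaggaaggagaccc

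On both strands, 4 motifs were searched in these windows. The TATA box, TATAAA, was found in 21 of the 38 keratin windows (55.3%) against 10.7% of the 35093 windows of all genes, and in KRT10 and KRT33A it began 29 bases before the start. The palindrome TTCNNNNGAA, the form that STAT6 binds, was found in 3 of 38 windows (7.89%, all windows 5.38%), those of KRT31, KRT33A and KRT35. The AP-1 motif TGANTCA was in 0 of 38 (all windows 6.57%) and the AP-2 motif GCCNNNGGC in 5 of 38 (all windows 19.8%). The KRT5 window held none of the 4. These are matches of letters, not binding sites. Windows of KRT81, KRT6B, KRT18 and KRT23 were not printed because the table used has no entry for them.

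The values are log2 expression made by the authors with RMA, which corrects background, normalizes the arrays together and summarizes probes. A unit of 1 is a factor of 2. Array medians lay between 5.02 and 5.06, and the correlation over features was 0.992 to 0.993 (Pearson's r, printed as a description) within groups and 0.988 to 0.993 between them. IL13RA2, the target, was lower with the hairpin in each treatment, at 8.07 and 8.09 on the mock shSCR arrays, 9.36 and 9.33 with IL-13, 6.52 and 6.34 in the mock knockdown and 8.23 and 8.15 in the IL-13 knockdown. It was higher with IL-13 in both constructs, so the IL-13 knockdown (mean 8.19) was not below mock shSCR (mean 8.08). Epithelial markers (EPCAM, CDH1, DSP, CLDN4, ELF3) averaged 8.93 to 9.08 per array. The 6 basal mammary markers averaged 6.74 to 7.07 and the 6 luminal ones 5.54 to 5.68. Both lists were mixed, with gene means over all arrays from 5.978 to 8.671 for basal and 3.202 to 8.002 for luminal markers. The luminal GATA3 (8.002), FOXA1 (7.31) and XBP1 (7.23) were high and PGR (3.202) was low. The 2 averages are therefore not compared with each other. Fibroblast markers averaged 4.17 to 4.29 and immune markers 4.07 to 4.38, with PTPRC, the pan-leukocyte marker, at 2.27 to 2.71. Of the 3 endothelial markers, VWF (3.65 to 4.07) and CDH5 (4.40 to 4.83) were low, and PECAM1 alone was at 7.71 to 8.82, highest in the mock knockdown (8.82 on both arrays). Its part in the results below was not tested.

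A reading of level was taken only against the 2904 negative control features, whose median was 4.19 and 75th percentile 6.07. All 6 basal and 4 hyperproliferative features and 4 of the 6 simple ones lay above that 75th percentile on average, 0 of 15 suprabasal and 0 of 9 root sheath ones did, and 1 of 19 hair features did, KRT86 at 6.34. In all, 15 of 60 features were above the 75th percentile and 39 above the median. KRT19 and KRT20 were the simple keratins below it, and KRT16 lay close above it, at 6.39 on average. RMA levels of different features depend on their probes and are not compared with each other here.

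**Figure D1:**
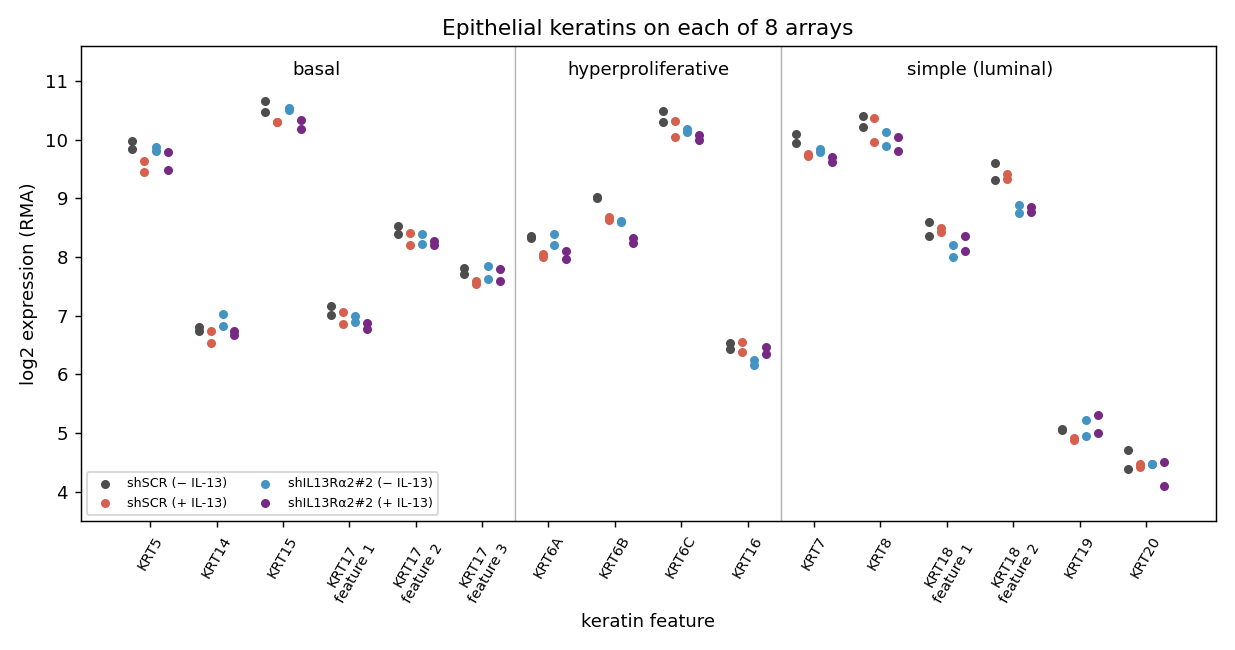
Log2 RMA expression (y axis) of each basal, hyperproliferative and simple keratin feature (x axis) on each of the 8 arrays, 1 point per array, coloured by group. KRT6B has a mean of 9.02 in mock shSCR cells and 8.28 in the IL-13 knockdown, and the second KRT18 feature has means of 9.46 and 8.81.

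Differences were tested with limma, which fitted the means of the 4 groups to all tested features with a shared estimate of the spread (4 residual and 3.86 prior degrees of freedom). P-values were adjusted over all 29141 features by the Benjamini-Hochberg method. A feature was called at an adjusted p under 0.05 with a fold change over 2, the thresholds of the study, and a second count used the adjusted p alone. The comparisons of IL-13 shSCR, mock knockdown and IL-13 knockdown with mock shSCR share the mock shSCR arrays, and those with the knockdown groups share arrays too, so the values of a gene in them are given side by side only.

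One keratin, KRT81, passed both thresholds, and it did so in the IL-13 knockdown cells against the mock shSCR cells (1 of 60 features, 1.67%, where 0.154% of all features were called). KRT81 is a type II hair keratin of the cortex. Its feature (identifier 7963353) measured 6.29 and 6.28 in mock shSCR cells, 5.20 and 5.42 in IL-13 shSCR cells, 5.55 and 5.63 in the mock knockdown and 5.30 and 5.10 in the IL-13 knockdown. The 2 mock shSCR arrays stood above all 6 others, and every IL-13 array lay below every mock array. The mock shSCR arrays were the only ones above the 75th percentile of the negative controls, and the other 6 lay between it and their median, so the size of the change is uncertain at this level. As measured, the IL-13 knockdown cells were at 47.3% of the mock shSCR level, a limma log2 difference of -1.08 with standard error 0.12 and adjusted p = 0.021. The call was lost on leaving out any array of the mock shSCR, mock knockdown or IL-13 knockdown groups, and the adjusted p was between 0.0436 and 0.187 over the 8 arrays left out in turn. It was also lost with limma on the 4 compared arrays alone and with the adjusted methods' test, an analysis of variance. That last test called 0 of the 29141 features in this comparison, so its loss there says nothing particular to KRT81.

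For KRT81 the other comparisons gave these values. IL-13 in shSCR cells gave -0.97 (standard error 0.12, adjusted p = 0.0691 from limma), a fold of 1.96. The knockdown without IL-13 gave -0.69 (adjusted p = 0.169), and IL-13 within the knockdown gave -0.39 (adjusted p = 0.602). Among IL-13-treated cells the knockdown gave -0.11, with a 95% confidence interval of -0.39 to 0.18. Averaged over both constructs, the IL-13 effect on KRT81 was -0.68 (standard error 0.09, adjusted p = 0.0338), which passed on adjusted p but not on fold, and this call was lost whichever array was left out (adjusted p = 0.0893 to 0.185). The knockdown averaged over both treatments gave -0.40 (adjusted p = 0.144). The IL-13 response of KRT81 differed between constructs by 0.58 (unadjusted p = 0.0104 from limma, adjusted p = 0.989).

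KRT86 and KRT83, the hair keratins on either side of KRT81 along the chromosome, are close paralogs whose probes may share signal with it, so their values are not independent. KRT86 measured 6.65 and 6.54 in mock shSCR cells, 6.20 and 6.06 with IL-13, 6.33 and 6.48 in the mock knockdown and 6.26 and 6.26 in the IL-13 knockdown. All IL-13 arrays lay below all mock arrays, with a mean IL-13 difference of -0.31 (standard error 0.08, adjusted p = 0.314). KRT83, named after its values were seen, measured 5.78 and 5.41, then 5.38 and 5.21, then 5.82 and 5.68, then 5.57 and 5.65 in the same order of groups, and its mean IL-13 difference was -0.22 (adjusted p = 0.614). Its knockdown value in IL-13-treated cells was 0.31 (adjusted p = 0.736), on the other side of 0 from that of KRT81.

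**Figure D2:**
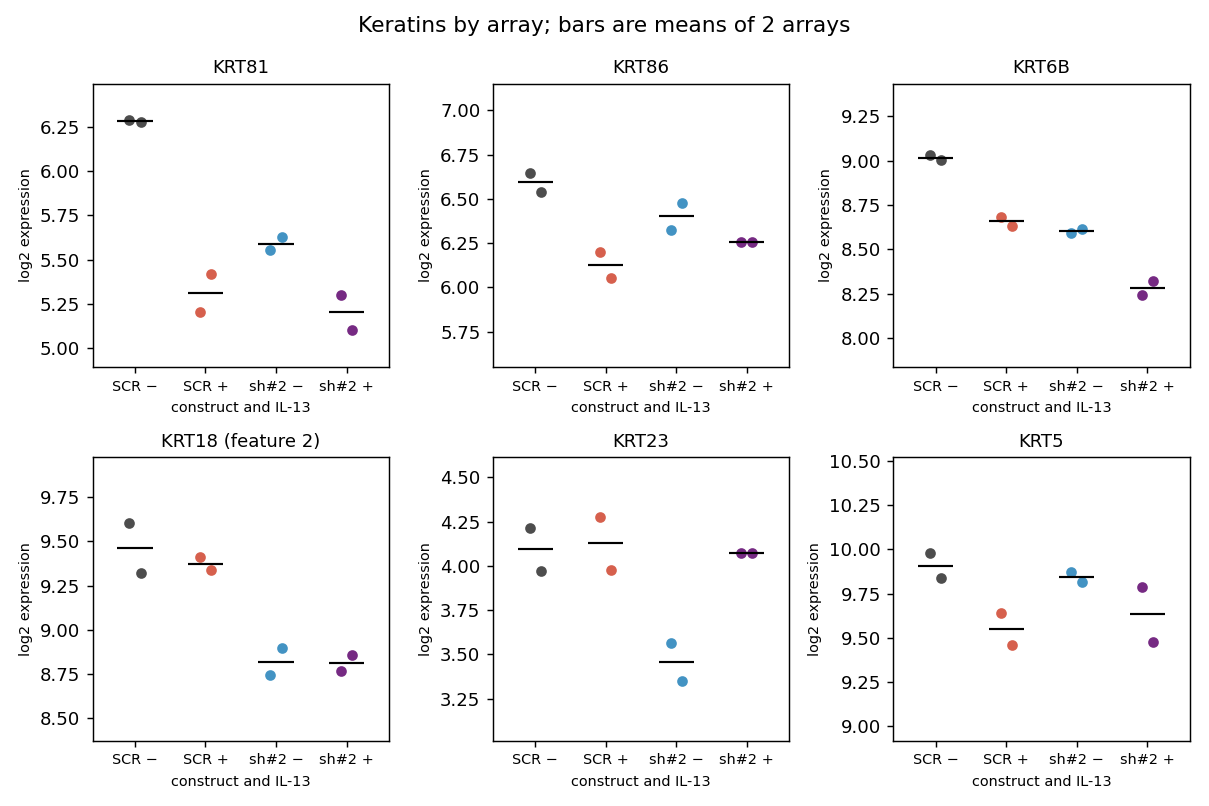
Log2 expression (y axes, each over a range of at least 1.6) of 6 keratin features on the 2 arrays of each group (x axis, SCR for the scrambled hairpin, sh#2 for the hairpin against IL13Rα2, + and − for IL-13), with bars at the group means. KRT81 drops from 6.28 in mock shSCR cells to 5.20 in the IL-13 knockdown, KRT6B is highest in mock shSCR and lowest in IL-13 knockdown cells, the second KRT18 feature is lower on the 4 hairpin arrays, and KRT23 is lowest in the mock knockdown.

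KRT6B, a type II keratin of wounded and hyperproliferative epithelium (identifier 7963406), was the second keratin with an adjusted p under 0.05 in the IL-13 knockdown cells against mock shSCR cells (2 of 60 on this count, all features 0.285%). It measured 9.03 and 9.004 in mock shSCR cells, 8.68 and 8.63 in IL-13 shSCR cells, 8.59 and 8.61 in the mock knockdown and 8.24 and 8.32 in the IL-13 knockdown. The mock shSCR arrays were highest and the IL-13 knockdown arrays lowest, with the other 4 between. KRT6B fell by 0.74 on the log2 scale to 60.1% of the mock shSCR level (standard error 0.10, adjusted p = 0.0357 from limma), and leaving out any array lost the call (adjusted p = 0.0844 to 0.224). The values for each factor alone were -0.36 for IL-13 in shSCR cells, -0.32 for IL-13 in the knockdown, -0.41 for the knockdown without IL-13 and -0.38 with it. The difference of the 2 IL-13 responses was 0.04 (95% confidence interval -0.29 to 0.37).

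Its paralogs in the same cluster and its type I partner gave smaller values. Probes of the paralogs KRT6A, KRT6B and KRT6C may share signal, which was not tested, so their values are not independent. KRT6A measured 8.36 and 8.32 in mock shSCR, 8.06 and 7.99 in IL-13 shSCR, 8.40 and 8.21 in mock knockdown and 8.11 and 7.96 in IL-13 knockdown cells. All IL-13 arrays of KRT6A were below all mock arrays (mean IL-13 difference -0.29, adjusted p = 0.358), and its mean knockdown difference was -0.01 (95% confidence interval -0.20 to 0.18), against -0.40 for KRT6B (adjusted p = 0.0818). KRT6C measured 10.49 and 10.31, 10.32 and 10.04, 10.18 and 10.14, and 10.08 and 10.00 in that order of groups, and the groups overlapped between treatments. KRT16, the type I partner of KRT6, measured 6.54 and 6.44 in mock shSCR, 6.38 and 6.56 in IL-13 shSCR, 6.16 and 6.25 in mock knockdown and 6.46 and 6.35 in IL-13 knockdown cells. The mock knockdown arrays of KRT16 were the lowest (knockdown without IL-13 -0.29, adjusted p = 0.505).

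The luminal pair KRT8 and KRT18 form the first keratin filaments of simple epithelium. KRT18 had 2 features, and the second (identifier 8154725) passed on adjusted p for the knockdown averaged over both treatments (1 of 60, all features 0.446%, none past the fold of 2, where 0.0755% of all features were called). It measured 9.60 and 9.32 in mock shSCR, 9.41 and 9.34 in IL-13 shSCR, 8.75 and 8.90 in mock knockdown and 8.77 and 8.86 in IL-13 knockdown cells. All 4 knockdown arrays were below all 4 shSCR arrays, at 66% of their level (-0.60 on the log2 scale, limma standard error 0.09, adjusted p = 0.0454). The call was lost whichever array was left out (adjusted p = 0.0879 to 0.184) and when the arrays were shifted to one median (adjusted p = 0.0592). The mean IL-13 difference of this feature was -0.05 (95% confidence interval -0.26 to 0.16).

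The first KRT18 feature (identifier 7955637) measured 8.60 and 8.36, 8.50 and 8.43, 8.01 and 8.20, and 8.36 and 8.11 in the same order. Its 4 knockdown arrays also lay below the 4 shSCR arrays, but only just, at 8.359 against 8.364 for the closest arrays. The mean knockdown difference of this feature was -0.30 (standard error 0.10, adjusted p = 0.327). The 2 features may not read the same transcripts. RefSeq lists 68 KRT18 pseudogenes on 22 chromosomes, and the identifier of the second feature falls between those of IFNK and ACO1, genes of chromosome 9, which has 5 of these pseudogenes. The identifier of the first falls among genes of chromosome 12, between KRT86 and EIF4B. The deposited table gives no coordinates for features, and the share of pseudogene signal in the second feature was not tested. KRT8 measured 10.41 and 10.22, 10.37 and 9.96, 9.90 and 10.13, and 10.05 and 9.81 in the 4 groups, with overlap between constructs (mean knockdown difference -0.27, 95% confidence interval -0.55 to 0.01, adjusted p = 0.465).

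The other luminal keratins gave no call with the group-mean fit. KRT7, the type II keratin of ducts and glands, measured 10.10 and 9.94 in mock shSCR, 9.76 and 9.72 in IL-13 shSCR, 9.80 and 9.85 in mock knockdown and 9.70 and 9.62 in IL-13 knockdown cells. Every IL-13 array of KRT7 was below every mock array (mean IL-13 difference -0.22, adjusted p = 0.463). With an intensity trend and a robust variance in limma, KRT7 passed on adjusted p in the IL-13 knockdown against mock shSCR (-0.36, adjusted p = 0.0313). KRT19, the smallest keratin and a luminal marker, measured 5.07 and 5.06, 4.88 and 4.91, 4.96 and 5.23, and 5.00 and 5.31, between the median and the 75th percentile of the negative controls. Its mean IL-13 difference was -0.05 and its mean knockdown difference 0.14, with 95% confidence intervals of -0.28 to 0.18 and -0.09 to 0.37. KRT20 lay near 4.44 on average.

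The 6 basal features, which are of 4 genes with KRT17 entering 3 times, all had a mean IL-13 difference below 0. KRT5, the type II keratin of basal cells, measured 9.98 and 9.84 in mock shSCR, 9.64 and 9.46 in IL-13 shSCR, 9.87 and 9.82 in mock knockdown and 9.79 and 9.48 in IL-13 knockdown cells. Its type I partner KRT14 measured 6.80 and 6.74, 6.54 and 6.73, 7.04 and 6.83, and 6.74 and 6.67. KRT15, a type I keratin of basal and progenitor cells, measured 10.65 and 10.48, 10.30 and 10.31, 10.50 and 10.55, and 10.33 and 10.19. For all 3 the 4 IL-13 arrays were below the 4 mock arrays, for KRT14 only just, at 6.735 against 6.742 for the closest arrays. None passed the adjusted threshold: the mean IL-13 differences were -0.29 for KRT5 (adjusted p = 0.455), -0.18 for KRT14 (adjusted p = 0.616) and -0.27 for KRT15 (adjusted p = 0.394). With the trend and robust variance the KRT15 difference did pass (adjusted p = 0.0383). Their mean knockdown differences were 0.01, 0.12 and -0.04.

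KRT17, a type I keratin of basal-like tumours and wound edges, had 3 features. The first measured 7.17 and 7.02, 7.06 and 6.86, 6.90 and 7.001, and 6.87 and 6.77. The second measured 8.53 and 8.38, 8.41 and 8.21, 8.22 and 8.40, and 8.28 and 8.21, and the third 7.81 and 7.70, 7.59 and 7.54, 7.62 and 7.85, and 7.60 and 7.80. Groups overlapped between treatments in all 3, with mean IL-13 differences of -0.13, -0.11 and -0.11 (adjusted p = 0.713, 0.785 and 0.77). Only the third has an identifier next to that of KRT16, the neighbour of KRT17 in the type I cluster. Those of the first and second fall beside SMCR8 and ZNF624, and RefSeq lists 8 KRT17 pseudogenes.

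Suprabasal keratins, which mark differentiation of stratified epithelium, gave 0 calls in any comparison. KRT10 measured 5.57 and 5.71, 5.35 and 4.94, 5.43 and 5.60, and 5.40 and 5.28 in the 4 groups, and KRT9, the keratin of palm and sole skin, 4.38 and 4.68, 4.04 and 4.07, 4.16 and 4.36, and 4.07 and 4.03. In both, all IL-13 arrays were below all mock arrays (mean differences -0.33 and -0.34, adjusted p = 0.436 and 0.352). All IL-13 arrays of KRT9 also lay below the median of the negative controls, so its level is close to background. KRT1, the type II partner of KRT10, measured 3.82 and 4.27, 4.08 and 3.96, 4.45 and 4.26, and 4.22 and 4.31, with a mean IL-13 difference of -0.05 (95% confidence interval -0.32 to 0.21). The mucosal pair KRT4 and KRT13 measured 5.34 and 5.17, 4.91 and 5.20, 4.91 and 4.92, and 4.99 and 4.94 for KRT4 and 5.88 and 6.02, 5.72 and 5.80, 5.85 and 5.77, and 5.67 and 5.57 for KRT13. Neither passed on adjusted p, with mean IL-13 differences of -0.08 and -0.19. For the mean knockdown effect, 4 of 15 suprabasal features had an unadjusted p under 0.05 from limma. KRT4 and KRT23 were lower (13.3%, all features 6.03%) and KRT1 and KRT76 higher (13.3%, all features 5.31%). The KRT1 difference was 0.28, at a level near the median of the negative controls.

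KRT23, a type I keratin of simple and differentiating epithelia, had its own pattern. It measured 4.21 and 3.97 in mock shSCR cells, 4.28 and 3.98 with IL-13, 3.56 and 3.35 in the mock knockdown and 4.07 and 4.07 in the IL-13 knockdown. The 2 mock knockdown arrays stood below all others (knockdown without IL-13 -0.64, adjusted p = 0.279; IL-13 in the knockdown 0.62, adjusted p = 0.441). All these values lie near or below the median of the negative controls, so the level itself is close to background.

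Among the hair keratins, KRT33A, whose upstream window is printed above, was the only keratin whose 4 IL-13 arrays all lay above the mock ones: 5.08 and 5.00 in mock shSCR, 5.54 and 5.39 in IL-13 shSCR, 5.13 and 4.80 in mock knockdown and 5.21 and 5.34 in IL-13 knockdown cells. The mean difference was 0.36 (standard error 0.10, adjusted p = 0.342). KRT31 and KRT35 held the palindrome TTCNNNNGAA too, and their arrays overlapped between treatments. In the same order of groups, the means were 3.62, 3.81, 3.72 and 3.74 for KRT31. They were 4.62, 4.61, 4.51 and 4.44 for KRT35. A link of the palindrome to these values was not tested. KRT34 measured 3.80 and 3.40, 3.64 and 3.89, 3.71 and 3.62, and 3.16 and 3.29, lowest in the IL-13 knockdown (against IL-13 shSCR -0.54, adjusted p = 0.512) and below the median of the negative controls.

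**Figure D3:**
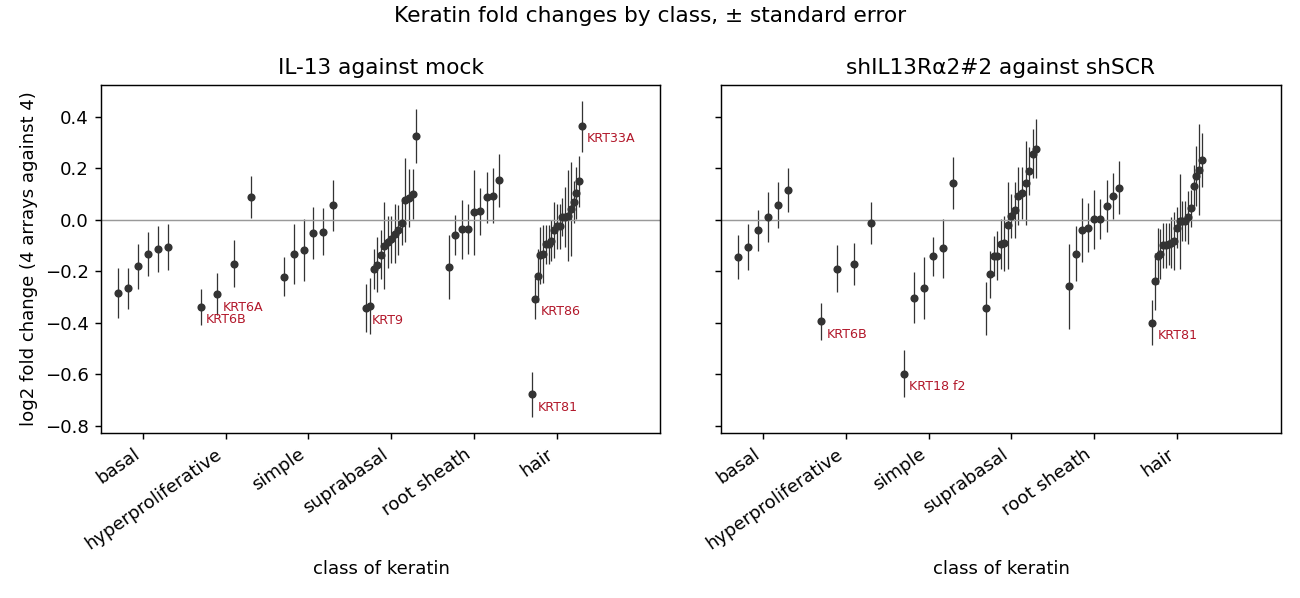
Log2 fold change of each keratin feature with its standard error (y axis), by class (x axis), for IL-13 against mock (left, 4 arrays against 4) and the hairpin against IL13Rα2 against scrambled (right), with names for unadjusted p under 0.01. The 6 basal features, of 4 genes, all lie below 0 for IL-13, from -0.29 to -0.11, while for the hairpin they straddle 0.

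For IL-13 averaged over both constructs, limma called 0 of 60 keratins on both thresholds (all features 0.0927%), 1 on the adjusted p (all features 0.233%), and 10 lower and 2 higher at an unadjusted p under 0.05. The lower ones were 16.7% of the keratins, against 3.85% of all features, and the higher ones 3.33% against 4.88%. The arrays of the 2 treatments did not overlap in 9 keratins that were lower (15% against 1.93%), namely KRT5, KRT14, KRT15, KRT6A, KRT7, KRT9, KRT10, KRT81 and KRT86, and in 1 that was higher, KRT33A (1.67% against 2.85%). Of the lower ones, KRT9 was close to background and KRT14 was separated only just. All arrays of KRT10 and KRT33A, and those of KRT81 outside mock shSCR, lay below the 75th percentile of the negative controls (6.07). The median log2 fold change was -0.06 over the keratins and 0.01 over all features, with 40 of 60 keratins (66.7%) and 47.4% of all features below 0. By class the medians were -0.16 for basal (6 of 6 features, of 4 genes, below 0) and -0.23 for hyperproliferative (3 of 4). They were -0.08 for simple (5 of 6) and -0.08 for suprabasal (11 of 15). They were 0.03 for root sheath and -0.02 for hair keratins.

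For the knockdown averaged over both treatments, 6 keratins were lower and 2 higher at an unadjusted p under 0.05, 10% and 3.33% of them, against 6.03% and 5.31% of all features. Arrays of the 2 constructs did not overlap in 3 features that were lower, KRT6B and both KRT18 features (5% against 3.87%), and in 2 that were higher, KRT2 and KRT76, suprabasal type II keratins (3.33% against 3.26%). The first KRT18 feature was separated only just. The median was -0.03 over keratins and -0.01 over all features, with 36 of 60 keratins (60%) and 51.8% of all features below 0. Class medians were -0.02 for basal (3 of 6 below 0), -0.18 for hyperproliferative (4 of 4), -0.20 for simple (5 of 6) and -0.03 for hair keratins (13 of 19). They were 0.02 for suprabasal keratins (7 of 15 below 0) and 0.001 for root sheath ones (4 of 9).

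In the single comparisons limma called 0 keratins except KRT81. IL-13 in shSCR cells gave 0 of 60 (all features 0.0583%), with 9 lower and 1 higher at an unadjusted p under 0.05 (all features 3.15% and 3.64%). The knockdown without IL-13 gave 0 (all features 0.0652%), with 7 lower and 0 higher at an unadjusted p (all features 5.23% and 4.28%). IL-13 in the knockdown gave 0 (all features 0.0618%), with 5 lower and 1 higher (all features 2.97% and 3.96%), and the knockdown among IL-13-treated cells gave 0 (all features 0.0515%), with 3 lower and 1 higher (all features 3.63% and 3.44%). The IL-13 knockdown against mock shSCR gave 11 lower (18.3%) and 0 higher at an unadjusted p (all features 4.78% and 4.79%). For the difference of the IL-13 responses between constructs, limma called 0 keratins and 0 features of any kind at an adjusted p under 0.05 (all features 0%), and 3 keratins, KRT81, KRT23 and KRT34, at an unadjusted p (5% against 4.47%). The methods' test, unadjusted and with the fold threshold, gave 1 keratin in the IL-13 knockdown against mock shSCR (all features 0.23%). It gave 0 keratins for IL-13 in shSCR cells (all features 0.103%), the knockdown without IL-13 (0.127%), IL-13 in the knockdown (0.117%), the knockdown among IL-13-treated cells (0.0961%), the mean IL-13 effect (0.0995%) and the mean knockdown effect (0.0721%). After adjustment it gave 0 keratins in all 7, and of all features 0.0275% for the mean IL-13 effect, 0.0103% for the mean knockdown effect and 0% in the other 5.

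Along chromosome 12 the type II genes lie in the order KRT80, KRT7, KRT86, KRT81, KRT83, and on past KRT6B, KRT6C, KRT6A and KRT5 to KRT8 and the type I gene KRT18. With KRT18 taken by its first feature, the mean IL-13 difference was below 0 in 18 of the 27 genes of chromosome 12 and above 0 in 9, and the mean knockdown difference was below 0 in 15 and above 0 in 12. On chromosome 17 the mean IL-13 difference was below 0 in 21 of 32 features and the mean knockdown difference in 20. These 32 features are of 28 genes, and KRT39 and KRT40 each enter with 2 identical features. Of all features, 47.4% were below 0 for the mean IL-13 effect and 51.8% for the mean knockdown effect.

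The proteins that anchor keratin filaments and the factors that regulate keratin genes were taken from lists written for this purpose. Of 19 measured linkers, 1 passed on adjusted p in the IL-13 knockdown against mock shSCR (all features 0.285%) and 1 for the mean knockdown effect (all features 0.446%). In both it was DST, whose epithelial form ties keratins to hemidesmosomes. Its feature gives 1 value for the gene, and which form changed was not tested. DST rose: 9.23 and 9.15 in mock shSCR, 9.53 and 9.53 in IL-13 shSCR, 9.78 and 9.73 in mock knockdown and 9.89 and 9.88 in IL-13 knockdown cells. The first change was 0.70 (adjusted p = 0.0455 from limma) and the mean knockdown effect 0.46 (adjusted p = 0.0459). Unlike the keratin calls, those of DST, and of the regulators and VIM below, were not repeated with arrays left out or under other settings. DSC3, a desmosomal cadherin of basal cells, measured 8.54 and 8.59, 8.47 and 8.37, 8.84 and 8.93, and 8.76 and 8.88 (mean knockdown difference 0.36, adjusted p = 0.132). At an unadjusted p under 0.05 the mean knockdown effect had 3 linkers higher and 0 lower (all features 5.31% and 6.03%). The mean IL-13 effect had 1 higher and 1 lower of 19, near the share of all features (4.88% and 3.85%).

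Among 20 regulators, measured by 21 features, TP63 and EHF rose on adjusted p for the mean knockdown effect and none fell (all features 0.446% in either direction). TP63 was also the regulator that passed for the mean IL-13 effect (all features 0.233%). In the IL-13 knockdown against mock shSCR it passed too, at 1.78 (adjusted p = 0.00969 from limma, all features 0.285%). The mock shSCR arrays of TP63 lay below the 75th percentile of the negative controls (6.07), so the size of its rise is uncertain. The study had already reported TP63 from these same arrays, and the list was written with earlier results known. Its calls are therefore no independent result. TP63, the p63 factor that drives KRT5 and KRT14 in basal cells, measured 5.06 and 4.87, 6.11 and 5.999, 6.11 and 6.20, and 6.98 and 6.50, a mean rise of 0.94 with the knockdown (adjusted p = 0.0225) and of 0.84 with IL-13 (adjusted p = 0.0463). EHF, an epithelial ETS factor, measured 8.59 and 8.60, 8.68 and 8.68, 9.23 and 9.16, and 9.23 and 9.03, a mean rise of 0.52 with the knockdown (adjusted p = 0.0442). FOSL1, an AP-1 subunit, and GRHL1, a grainyhead factor, gave -0.41 and 0.37 for the knockdown (adjusted p = 0.13 and 0.119). At an unadjusted p under 0.05 the mean knockdown effect had 4 regulators higher (TP63, EHF, GRHL1 and KLF4) and 1 lower (FOSL1), where all features gave 5.31% and 6.03%. For IL-13 averaged over both constructs, 1 was higher and 1 lower of 21 features, near the share of all features (4.88% and 3.85%). Beside these, KRT5 and KRT14 had mean knockdown differences of 0.01 and 0.12 and mean IL-13 differences below 0.

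Of 13 other intermediate filament genes, VIM, the vimentin of mesenchymal and basal-like cells, fell on adjusted p for the mean knockdown effect and in the IL-13 knockdown against mock shSCR (all features 0.446% and 0.285%), and no other did. It measured 8.55 and 8.40 in mock shSCR, 8.23 and 8.38 in IL-13 shSCR, 7.90 and 7.91 in mock knockdown and 7.53 and 7.60 in IL-13 knockdown cells. All 4 knockdown arrays were below all 4 shSCR arrays. The mean knockdown effect was -0.65 (standard error 0.08, adjusted p = 0.0214 from limma) and the IL-13 knockdown differed from mock shSCR by -0.91 (adjusted p = 0.0283).

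**Figure D4:**
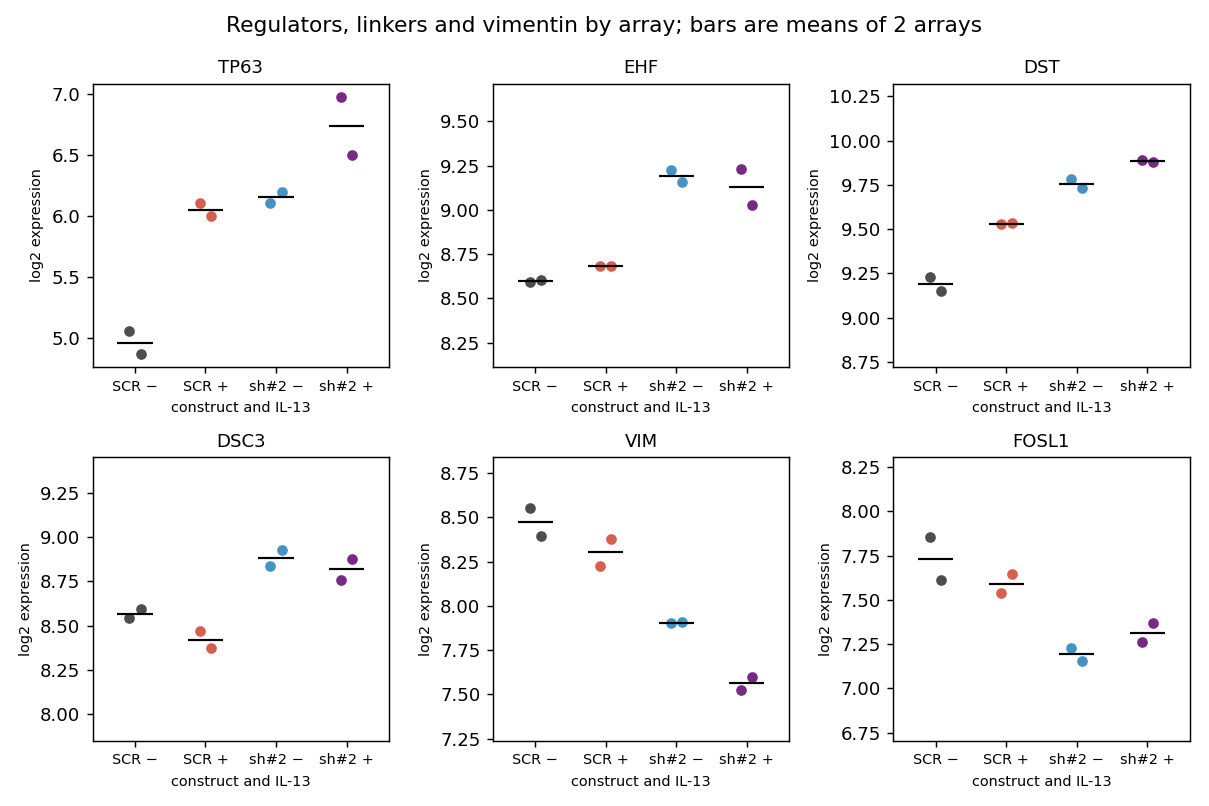
Log2 expression (y axes) of 2 linkers, 3 regulators and vimentin on the 2 arrays of each group (x axis as for the keratins by array), with bars at the group means. TP63 and DST are lowest in mock shSCR cells and highest in the IL-13 knockdown, and VIM is lowest there.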

How the data were processed

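Expression was measured on 8 Affymetrix arrays. The authors deposited log2 values per gene-level feature, made with RMA (Affymetrix Expression Console version 1, per the submitters' processing notes) and used here as they stand. Construct and treatment in the column headings gave each column its group. The table has 33297 features. After removal of 4156 control and spike-in ones, 29141 entered the tests, with no filter on dim ones. The array design and genome build behind the features were not given in the sources used here beyond the labels' Exon array name.

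Group means were fitted with limma 3.58.1 in R 4.3.3 and tested in 8 comparisons, each adjusted over all features. The procedure was tested on simulated data. Precision is limited by the number of arrays. The members and gene lists were chosen with earlier results of these data known, and the classes come from general knowledge.

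Full values were given for the main basal, hyperproliferative, luminal and suprabasal keratins and for any keratin with an unadjusted p under 0.01 in any comparison. Other keratins were mostly given by count, and members of other lists with an unadjusted p under 0.01 could be named. Alternatives were the methods' analysis of variance (unadjusted and adjusted), limma on the compared arrays alone, no adjustment, a fold of 1.5 or none, leaving out the dimmest 30% of features, a median shift, quantile normalization, limma-trend with robust variance, 1 feature per gene and leaving out each array.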

Additional observations from a re-analysis of the deposited data

How the results depend on the processing

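No paired analysis was possible because the column headings carry no replicate numbers, so the replicate block was not run. KRT81 in the IL-13 knockdown against mock shSCR was the only keratin past both thresholds. That count of 1 became 2 at a fold over 1.5 or with no fold threshold (KRT81 and KRT6B). It was 0 with limma on the compared arrays alone (KRT81 adjusted p = 0.14). The adjusted methods' test also gave 0, and it called 0 features of any kind there. Leaving out each array gave 0 to 1, being 0 without either array of the mock shSCR, mock knockdown or IL-13 knockdown groups. For the mean IL-13 and mean knockdown effects the count of 0 became 1 each at a fold over 1.5 and with no fold threshold (KRT81 and the second KRT18 feature), and for the difference of the IL-13 responses it was 3 at an unadjusted p. The 61 keratin fold changes with an unadjusted p under 0.05 were followed through 14 settings. The fold change itself moved in 458 of 820 combinations, with 0 reversed, and settings that alter only the variance or the features tested cannot move it. A robust intensity trend added 10 calls on adjusted p: KRT81 for IL-13 in shSCR cells (adjusted p = 0.00987) and the knockdown without IL-13 (0.0438), KRT6B for that knockdown (0.0281), the mean knockdown (0.00239) and the mean IL-13 effect (0.00919), the second KRT18 feature for the knockdown without IL-13 (0.0124), with it (0.03) and for the IL-13 knockdown against mock shSCR (0.00636), KRT7 for the last (0.0313) and KRT15 for the mean IL-13 effect (0.0383). It called 0.295% to 2.25% of all features in these comparisons. Without the dimmest 30% of features, which kept 41 keratin features, KRT81 for IL-13 in shSCR cells and KRT6B for the mean knockdown were at 0.0342 and 0.0357. The cause of these shifts was not tested. With 2 arrays per group, calls near the threshold turn on single arrays, and features near the negative controls have little signal to compare.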
